A study of Mus musculus with 12 samples.

Results

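Mitochondrial ribosomal protein genes were compared between hearts with and without a cardiomyocyte deletion of CYB5R3, cytochrome b5 reductase 3. The set held every gene of the count table whose identifier maps to a mouse protein-coding symbol made of Mrpl or Mrps and a number. Of 53700 genes counted, 77 met this rule, 48 of them Mrpl genes, named for the large subunit, and 29 Mrps genes, named for the small subunit. The reference lists 78 such symbols, and Mrpl33 was not matched to a counted gene. Expression was high enough to test in 76 of the 77 (filterByExpr of edgeR, minimum count 10), and the exception was Mrpl53.

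RNA came from the whole hearts of male mice, 6 ac-WT and 6 ac-CYB5R3-KO, which were between 10 and 13 weeks old, were dosed with tamoxifen over 5 days (33 mg/kg/d) and were examined 5 days later. Both groups were heterozygous for Myh6-CreERT2, a Cre recombinase that the α-myosin heavy chain promoter makes in cardiomyocytes and that tamoxifen activates. The Cre line was B6.FVB[129]-A1cfTg(Myh6-cre/Esr1*)1Jmk/J, and the mice, first of mixed FVB/B6 origin, were bred back to C57BL/6J over 3 crosses. The Cyb5r3 alleles were CYB5R3wt/wt in ac-WT and CYB5R3fl/fl in ac-CYB5R3-KO mice, and no group without Cre or without tamoxifen was sequenced. Cells of the heart other than cardiomyocytes keep Cyb5r3 in this model, and Cyb5r3 was 81.8 to 185 CPM (read counts relative to the library's TMM-scaled total) in ac-WT and 42.0 to 67.4 CPM in ac-CYB5R3-KO hearts (log2 fold change -1.22, SE 0.19, edgeR adjusted p = 0.0449). The groups did not overlap and the direction held under every alternative run, but the adjusted p was above 0.05 with limma-voom (0.0561), total counts (0.315), total counts of genes that are not mitochondrially encoded (0.221), the replicate number as a block (0.1) and in 7 of the 12 fits that left out a single heart (0.0305 to 0.136 over the 12). Libraries held 43393183 to 53754284 counts.

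Mitochondria keep their own ribosome, which translates the few messenger RNAs of the mitochondrial genome into core subunits of the respiratory chain and ATP synthase. Its RNAs are made inside the organelle, but all of its proteins are encoded in the nucleus, made in the cytosol and imported, so that a heart cell must build this particle from the products of 2 genomes. The small subunit binds the messenger RNA and decodes it, and the large subunit joins the amino acids and releases the chain through a tunnel that opens at the inner membrane. Many of its proteins descend from bacterial ribosomal proteins and others are found only in mitochondrial ribosomes.

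Promoters of these genes are shown first, because they show what the members share in sequence and where they differ. RefSeq promoter windows (GRCm38.p6, 250 bases before to 50 after the start) were matched for 68 of the 77 members. The core of the binding site of the ETS factor GABP, CCGGAAG on either strand, was found in 24 of the 68 windows (35.3%), against 9.12% of all 27025 genes with a window and 17% of the 11030 among them that were tested for expression. Among the windows of nuclear subunits of oxidative phosphorylation, 15 of 64 (23.4%) held it. The following stretches run 5′ to 3′ along the gene's strand and carry that core in capitals, for each member that was lower in ac-CYB5R3-KO hearts at an unadjusted p under 0.01 and has the core before its start.

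Mrpl51 (chr6:125192080-125192139, plus strand): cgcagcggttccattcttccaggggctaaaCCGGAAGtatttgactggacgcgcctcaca

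Mrpl58 (chr11:115403705-115403751, plus strand): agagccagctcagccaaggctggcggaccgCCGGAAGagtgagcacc

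Mrps16 (chr14:20393535-20393594, minus strand): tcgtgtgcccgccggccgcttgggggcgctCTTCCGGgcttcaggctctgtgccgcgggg

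Mrps18a (chr17:46110948-46111003, plus strand): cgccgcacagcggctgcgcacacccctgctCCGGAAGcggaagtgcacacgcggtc

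The core begins 90, 17, 74 and 26 bases before the start of Mrpl51, Mrpl58, Mrps16 and Mrps18a. Of 23 tested members with the core, 12 were lower in ac-CYB5R3-KO hearts at an unadjusted p under 0.05 (median log2 fold change -0.28). Of 44 with a window but without the core, 25 were lower (median -0.30). Over all genes tested, 9.73% were lower at this threshold. The medians with and without this core lay close together. The core of the YY1 site, AAGATGGC on either strand, was in 12 of the 68 windows (17.6%). It was in 2.88% of all genes, 4.39% of those tested and 14.1% of the oxidative phosphorylation subunits. Of the 12 members with it, 7 were lower at this threshold (median -0.29). The end of the ETS core can also be the start of the YY1 core.

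The core of the site of NRF1, a factor known for driving nuclear genes of the respiratory chain, is CGCATGCG, which reads the same on both strands. The share was 1.91% of all genes, 3.62% of those tested and 12.5% of the oxidative phosphorylation subunits. Of the members, 7 windows (10.3%) held it, those of Mrpl9, Mrpl10, Mrpl17, Mrpl22, Mrpl32, Mrpl39 and Mrps18b. None of these 7 was lower at an unadjusted p under 0.05 (median log2 fold change -0.13), a threshold met by 9.73% of all genes. All 7 had a negative log2 fold change, and Mrpl17, Mrpl22 and Mrpl39 lay just above the cut (edgeR unadjusted p = 0.0614, 0.0770 and 0.0772). Of the 60 tested members with a window but without the core, 37 were lower (median -0.31). The comparison was made after the values were seen and was not tested. The stretches with this core are shown for Mrpl32 and Mrps18b, which were to be described whatever their values.

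Mrpl32 (chr13:14613094-14613153, minus strand): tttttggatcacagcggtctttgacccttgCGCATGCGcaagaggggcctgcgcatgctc

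Mrps18b (chr17:35916635-35916690, minus strand): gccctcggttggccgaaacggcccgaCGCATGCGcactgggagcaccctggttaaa

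A TATA box (TATAAA on either strand) was in 4 of the 68 windows (5.88%, against 14.2% of all genes and 7.61% of those tested), and the site of the estrogen-related receptors, TCAAGGTCA on either strand, in 0 (against 0.407% and 0.263%). The shares among the oxidative phosphorylation subunits were 9.38% and 3.12%. Mrpl14, the member with the lowest p, holds no ETS, YY1 or NRF1 core in its window, and its last 60 bases before the start are shown for contrast. The RefSeq starts of Mrpl46, of the large subunit, and Mrps11, of the small, lie on opposite strands with 41 bases between them, and both genes are read outward from the stretch shown, Mrps11 to the right. In the GENCODE annotation of NCBIM37 these genes overlap, and 173 exonic bases (12.4% of those of Mrpl46 and 7.97% of those of Mrps11) are shared between the strands. Reads there may have been divided wrongly, since the strand setting of the counts is not known.

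Mrpl14 (chr17:45686289-45686348, plus strand): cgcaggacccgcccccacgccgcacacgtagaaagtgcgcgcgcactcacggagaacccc

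Mrpl46-Mrps11 (chr7:78783090-78783130, plus strand): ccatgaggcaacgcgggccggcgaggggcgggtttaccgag

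Mrpl46 was 14.4, 18.1 and 23.6 CPM (lowest, median and highest heart) in ac-WT and 11.7, 15.5 and 16.3 CPM in ac-CYB5R3-KO hearts (log2 fold change -0.32, SE 0.13, unadjusted p = 0.0284). Mrps11 was 13.4, 15.9 and 29.3 CPM in ac-WT and 11.9, 13.6 and 14.3 CPM in ac-CYB5R3-KO hearts (log2 fold change -0.44, SE 0.16, unadjusted p = 0.0177). The groups overlapped for both genes of the pair, although both were lower in ac-CYB5R3-KO hearts at this threshold.

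Across the whole set, 72 of the 76 tested members were lower in ac-CYB5R3-KO than in ac-WT hearts, mostly by a small amount. The median log2 fold change was -0.29, with quartiles of -0.41 and -0.15, beside -0.0074 over all 17847 genes tested. At an unadjusted p under 0.05 (edgeR quasi-likelihood test, TMM factors), 41 members were lower, against 9.73% of all genes, and 0 were higher, against 4.91%. At an unadjusted p under 0.01, 16 members were lower, against 3.27% of all genes. In bulk tissue, fewer cells of a type and less RNA per cell cannot be told apart.

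No single member passed correction for multiple tests with edgeR, where the lowest adjusted p was 0.173, against 0.101% of all genes called at an adjusted p under 0.05. With limma-voom 0 members passed as well, beside 2 of all genes. With DESeq2 1 did, Mrpl14 (adjusted p = 0.0202), beside 437 of all genes. In 10 members every ac-CYB5R3-KO heart was below every ac-WT heart, a pattern seen in 1.04% of all genes. They were Mrpl14, Mrpl23, Mrpl30, Mrpl42, Mrpl47 and Mrpl55 of the large subunit and Mrps16, Mrps24, Mrps28 and Mrps36 among the Mrps genes.

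**Figure D1:**
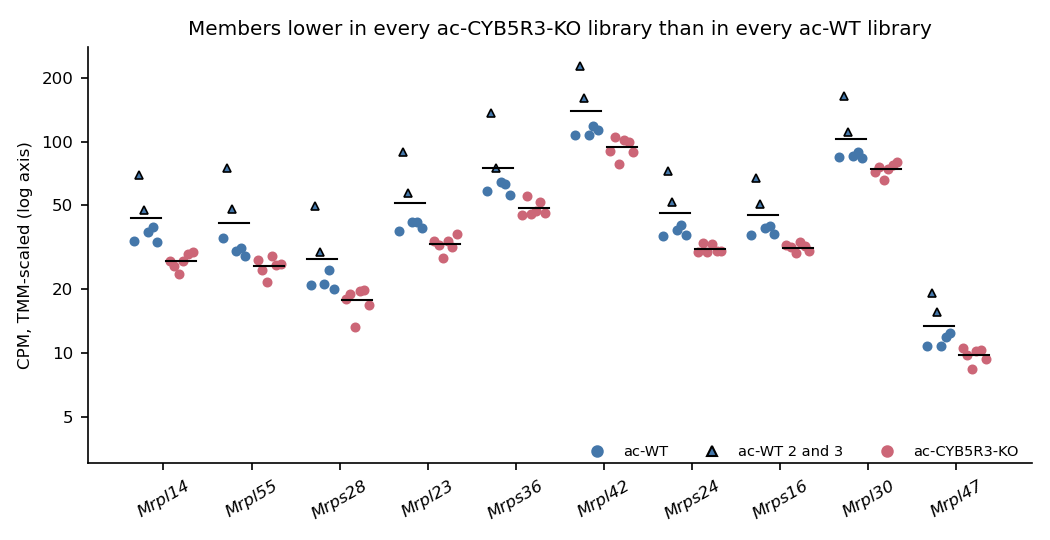
CPM (TMM-scaled, log axis) of the 10 members whose groups did not overlap, with a point for each heart, ac-WT in blue, ac-CYB5R3-KO in red, and black lines at the group means. Triangles are ac-WT 2 and 3, the 2 highest ac-WT hearts in each of these genes, and ac-CYB5R3-KO hearts lie below all ac-WT hearts, in Mrpl14 at 23.6 to 29.9 against 33.4 to 69.5 CPM.

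The size of the difference rested in large part on 2 ac-WT hearts. ac-WT 2 was the highest of the ac-WT hearts in 70 of the 76 members and the highest of all 12 hearts in 68. Relative to the median of ac-WT 1, 4, 5 and 6, its members stood at a median ratio of 1.59 and those of ac-WT 3 at 1.22, while all genes tested stood at 0.991 and 0.993. On total counts, with no TMM factors, the same ratios for the members were 0.832 and 0.805, and the ratio of all genes was not computed. A scaling factor moves all genes of a library alike, so it leaves the members' place among those genes unchanged.

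These 2 libraries stood apart in several other measures. Their TMM factors were 0.570 and 0.723, against 0.988 to 1.22 in the other 10, and 35.3% and 34.8% of their counts came from mitochondrially encoded genes, against 24% to 30.1%. Their summed cardiomyocyte markers were 59228 and 47175 CPM, against 26048 to 29605 in the other ac-WT and 19427 to 33178 in ac-CYB5R3-KO hearts, and their fibroblast markers were 1560 and 1754 CPM, against 5081 to 9681 in all other hearts. What part cell makeup or scaling has in the members' values was not tested.

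Without ac-WT 2 and 3, 58 of the 76 members were lower, and 16 were lower at an unadjusted p under 0.05, against 4.54% of all genes. All 16 were among the 41 of the full comparison, the median log2 fold change was -0.10 (0.016 over all genes), and 1 member, Mrps10, was higher (unadjusted p = 0.0117). When all 12 libraries were scaled by total counts in place of TMM, 33 of the 76 members were lower, with 3 lower at an unadjusted p under 0.05 (2.06% of all genes), namely Mrpl14, Mrpl23 and Mrpl55. The members' median was then 0.026 while the median of all genes stood at 0.26, a shift of 0.26 from the TMM scale. The members therefore lay below the median of all genes by 0.28 with TMM, 0.12 without the 2 hearts and 0.23 on total counts, whereas the sign of their own median changed with the scaling.

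**Figure D2:**
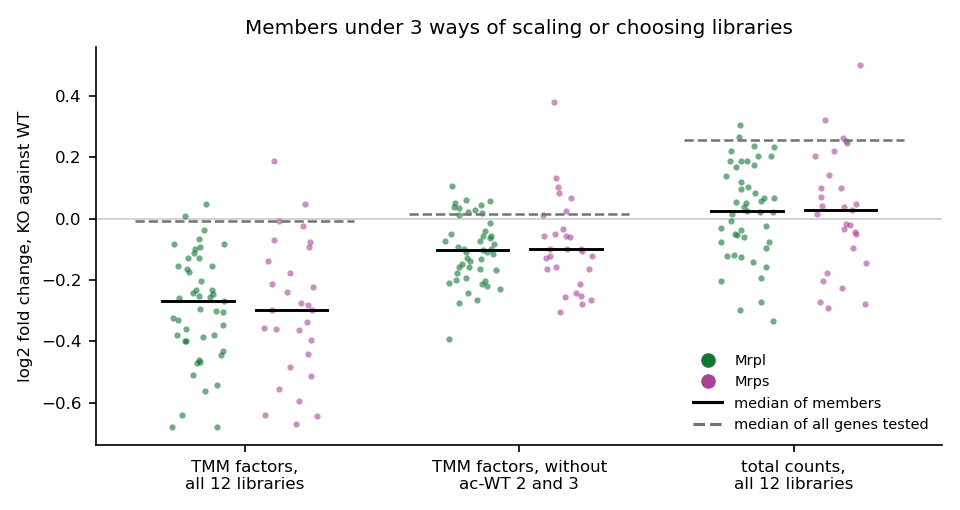
Log2 fold change of each tested member (points, Mrpl in green, Mrps in purple) under TMM scaling, TMM scaling without ac-WT 2 and 3, and total counts, with black lines at the members' medians and dashed lines at the median of all genes tested. The members sit below the dashed line on average in all 3, around -0.27 and -0.30 for Mrpl and Mrps on the left and around 0.026 for both on the right.

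Large and small subunit genes differed little from each other. Of 47 tested Mrpl genes, 26 were lower at an unadjusted p under 0.05, with a median log2 fold change of -0.27, and of 29 Mrps genes 15 were lower, with a median of -0.30. Within each library, the counts of Mrpl genes were 1.93 ± 0.032 times those of Mrps genes in ac-WT and 1.93 ± 0.023 times in ac-CYB5R3-KO hearts (SD, n = 6 each), a ratio that no scaling factor can change. Its range was 1.90 to 1.99 in ac-WT and 1.91 to 1.97 in ac-CYB5R3-KO hearts, so the groups overlapped almost fully.

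Some symbols do not match the protein's place in the ribosome. Mrps18a and Mrps30 encode proteins of the large subunit and Mrps36 a subunit of the 2-oxoglutarate dehydrogenase complex. Placed by structure, 27 of 49 large subunit genes and 13 of 26 small subunit genes were lower at an unadjusted p under 0.05, with medians of -0.27 and -0.29. Of the large subunit genes, those with a bacterial homolog were lower in 15 of 29 cases (median -0.25) and the mitochondria-specific ones in 12 of 20 (median -0.30). Of the small subunit genes, the counts were 10 of 16 with a bacterial homolog (median -0.32) and 3 of 10 classed as mitochondria-specific (median -0.23). The mitochondria-specific classes include Mrps18a and Mrps18b, although both are relatives of the bacterial protein S18.

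**Figure D3:**
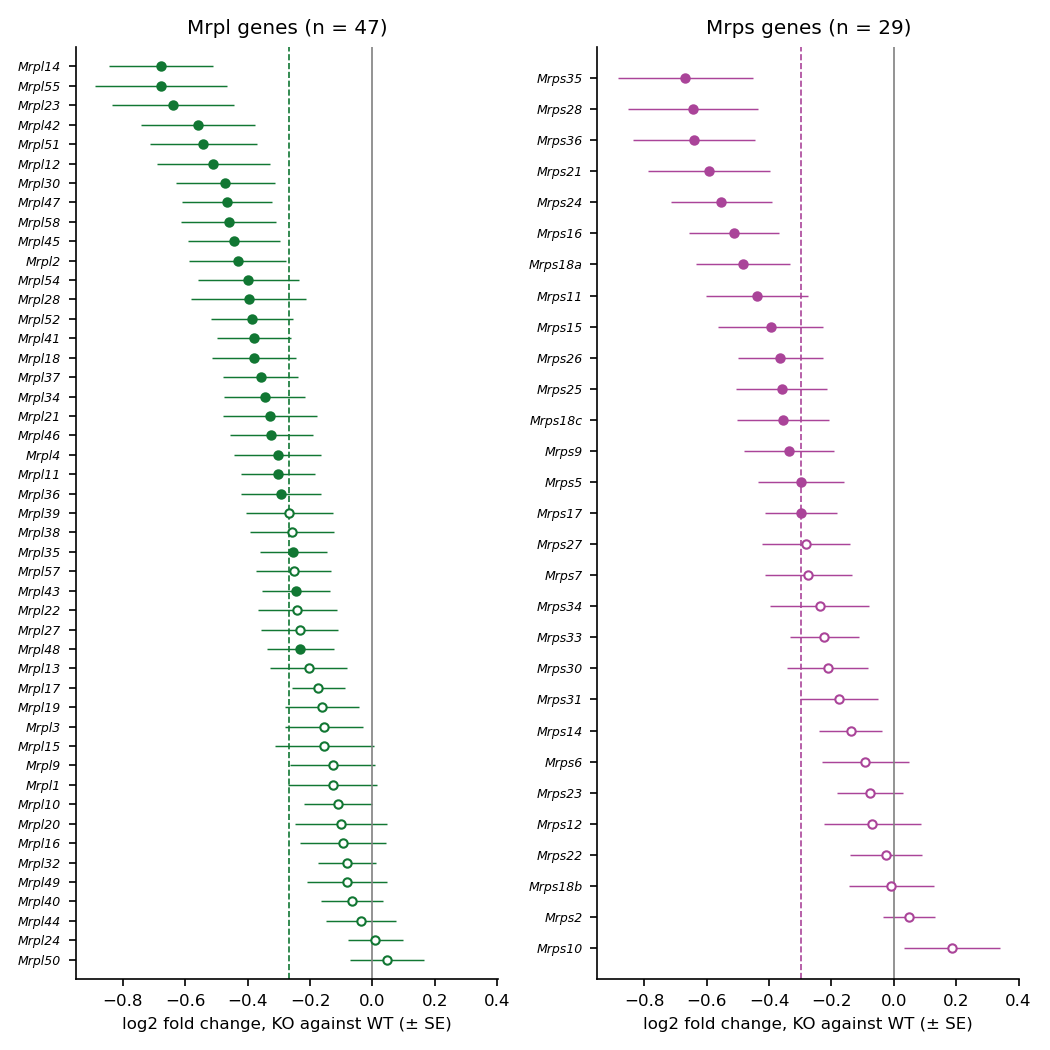
Log2 fold change of ac-CYB5R3-KO against ac-WT hearts with its standard error for the 47 tested Mrpl and 29 Mrps genes, filled where the unadjusted p was under 0.05, with the median dashed. Values run from -0.68 in Mrpl14 to 0.048 in Mrpl50 on the left and from -0.67 in Mrps35 to 0.19 in Mrps10 on the right.

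Of the large subunit, Mrpl14 had the lowest p of all members. Its protein lies at the interface where the subunits meet and is the docking site of the assembly factor Malsu1. Mrpl14 was 33.4, 38.4 and 69.5 CPM (lowest, median and highest) in ac-WT and 23.6, 27.2 and 29.9 CPM in ac-CYB5R3-KO hearts. The groups did not overlap, and the ac-CYB5R3-KO mean stood at 62.5% of that of ac-WT (log2 fold change -0.68, SE 0.17, unadjusted p = 0.00115, adjusted p = 0.173). The two-sided exact permutation test over all placements of the hearts gave p = 0.00216, the smallest it can give. Any gene without overlap between the groups receives this value, so it adds nothing to the lack of overlap. Without ac-WT 2 and 3 the difference was -0.39 on the log2 scale (edgeR unadjusted p = 0.000945), and on total counts -0.33 (unadjusted p = 0.0183).

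Mrpl23, Mrpl24 and Mrpl47 encode proteins around the opening of the exit tunnel, as does Mrpl45, which ties the ribosome to the inner membrane. Mrpl23 was 37.6, 41.7 and 89.6 CPM in ac-WT and 28.2, 33.2 and 36.4 CPM in ac-CYB5R3-KO hearts (log2 fold change -0.64, SE 0.20, unadjusted p = 0.00560). Mrpl47, among the lowest members per kilobase of exon, was 10.8, 12.2 and 19.3 against 8.40, 10.0 and 10.5 CPM (log2 fold change -0.47, SE 0.14, unadjusted p = 0.00623). The groups did not overlap in either gene, and ac-WT 2 was the highest heart in both. Mrpl45, named after its values were seen, was 25.1, 31.6 and 49.2 against 20.7, 25.1 and 27.6 CPM (log2 fold change -0.44, unadjusted p = 0.00984). Mrpl24, in contrast, was 14.5, 16.4 and 17.9 against 14.7, 16.2 and 19.0 CPM (log2 fold change 0.0090, SE 0.088, unadjusted p = 0.920). The log2 fold changes of these 4 genes thus ran from -0.64 to 0.0090.

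Mrpl55, a bacterial-type protein of the large subunit, was 28.9, 33.1 and 74.7 CPM in ac-WT and 21.7, 26.2 and 28.7 CPM in ac-CYB5R3-KO hearts. Its ac-WT values span more than those of Mrpl14, from ac-WT 6 at the bottom to ac-WT 2 at the top, yet the groups did not overlap (log2 fold change -0.68, SE 0.21, unadjusted p = 0.00670). Without ac-WT 2 and 3 its log2 fold change was -0.26 (unadjusted p = 0.0160). Mrpl30, which also belongs to the bacterial core, was 83.7, 87.4 and 164 against 66.0, 75.3 and 80.2 CPM (log2 fold change -0.47, SE 0.16, unadjusted p = 0.0108).

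Mrpl12 encodes the protein of the flexible stalk that recruits translation factors. It was 80.8, 94.8 and 171 CPM in ac-WT and 64.4, 80.2 and 84.5 CPM in ac-CYB5R3-KO hearts, so 3 of the 6 ac-CYB5R3-KO hearts were below all ac-WT hearts (log2 fold change -0.51, SE 0.18, unadjusted p = 0.0140). Without ac-WT 2 and 3 it was -0.18 (unadjusted p = 0.109). Mrpl32, whose protein is cut to its mature form by the m-AAA protease before it joins the ribosome, was 15.1, 17.4 and 20.3 against 14.2, 16.5 and 18.2 CPM (log2 fold change -0.082, SE 0.093, unadjusted p = 0.392). Mrpl19, low per kilobase, was 9.95, 13.1 and 15.9 against 9.50, 11.5 and 12.6 CPM (log2 fold change -0.16, SE 0.12, unadjusted p = 0.193). Neither of the latter differed beyond the spread between hearts, and both had a positive log2 fold change on total counts, 0.19 and 0.12.

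Among mitochondria-specific proteins of the large subunit, Mrpl42 had the highest level of all members per kilobase. It was 107, 116 and 227 CPM in ac-WT and 78.7, 95.0 and 105 CPM in ac-CYB5R3-KO hearts, with no overlap (log2 fold change -0.56, SE 0.18, unadjusted p = 0.00849). Mrpl51 was 98.4, 108 and 205 against 71.9, 88.8 and 98.5 CPM (log2 fold change -0.54, SE 0.17, unadjusted p = 0.00730), and 1 ac-CYB5R3-KO heart reached the lowest ac-WT heart. Mrpl41 was 25.6, 30.0 and 40.1 against 20.6, 24.7 and 25.7 CPM (log2 fold change -0.38, SE 0.12, unadjusted p = 0.00657). Its groups also met in a single ac-CYB5R3-KO heart.

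Mrpl52, the second highest member per kilobase, was 26.2, 36.3 and 50.2 CPM in ac-WT and 24.9, 28.1 and 31.8 CPM in ac-CYB5R3-KO hearts (log2 fold change -0.39, SE 0.13, unadjusted p = 0.0111). Of its 6 ac-CYB5R3-KO hearts 5 lay within the ac-WT range. Mrpl58 encodes a peptidyl-tRNA hydrolase that frees stalled ribosomes besides being part of the particle, and was 22.1, 25.9 and 45.2 against 18.8, 21.3 and 23.1 CPM (log2 fold change -0.46, SE 0.15, unadjusted p = 0.00940). Mrpl50 was 20.1, 22.7 and 26.3 against 18.3, 23.7 and 29.5 CPM (log2 fold change 0.048, SE 0.12, unadjusted p = 0.692), the highest value of the Mrpl genes. Mrpl53 was counted at 0 to 2 reads in each library, and 87.1% of its exonic bases (NCBIM37) are shared with Ccdc142 on the same strand, where a counter may leave reads out.

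Of the small subunit, Mrps16 had the lowest p. Its protein belongs to the bacterial core, and the gene is known from inherited mitochondrial disease. Mrps16 was 36.0, 39.5 and 67.3 CPM in ac-WT and 29.7, 31.8 and 33.3 CPM in ac-CYB5R3-KO hearts. The ac-CYB5R3-KO hearts lay close together and all below ac-WT, at 70.1% of the ac-WT mean (log2 fold change -0.51, SE 0.14, unadjusted p = 0.00338, edgeR adjusted p = 0.184). Without ac-WT 2 and 3 it was -0.25 (unadjusted p = 0.00389), and on total counts -0.18 (unadjusted p = 0.159).

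Mrps24 encodes a protein at the entry of the messenger RNA channel. It was 35.6, 39.1 and 72.2 CPM in ac-WT and 30.0, 30.4 and 33.2 CPM in ac-CYB5R3-KO hearts (log2 fold change -0.55, SE 0.16, unadjusted p = 0.00418; without ac-WT 2 and 3, -0.26, unadjusted p = 0.00401). Mrps28 was 20.1, 22.9 and 49.5 against 13.2, 18.4 and 19.8 CPM (log2 fold change -0.64, SE 0.21, unadjusted p = 0.00820). In both genes all ac-CYB5R3-KO hearts were below all ac-WT hearts.

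Mrps35, a mitochondria-specific protein, had the lowest log2 fold change of the Mrps genes. It was 34.6, 36.3 and 83.1 CPM in ac-WT and 23.4, 29.6 and 35.3 CPM in ac-CYB5R3-KO hearts (log2 fold change -0.67, SE 0.22, unadjusted p = 0.00796). Its ac-WT median and lowest values lay close together while ac-WT 2 stood far above, and without ac-WT 2 and 3 the log2 fold change was -0.26 (unadjusted p = 0.0417). Mrps21, among the highest per kilobase, was 65.7, 78.4 and 164 against 54.3, 61.1 and 66.9 CPM (log2 fold change -0.59, SE 0.20, unadjusted p = 0.00899). Both genes had 5 of 6 ac-CYB5R3-KO hearts below all ac-WT hearts.

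Mammals have 3 relatives of the bacterial protein S18, and their genes had unlike values. Mrps18a, of the large subunit, was 38.5, 42.9 and 72.1 CPM in ac-WT and 31.1, 35.1 and 39.5 CPM in ac-CYB5R3-KO hearts (log2 fold change -0.48, SE 0.15, unadjusted p = 0.00652). Mrps18c, of the small subunit, was 14.8, 19.0 and 27.2 against 13.8, 14.0 and 19.1 CPM (log2 fold change -0.36, SE 0.15, unadjusted p = 0.0302; exact permutation test, p = 0.0519). Mrps18b, of the small subunit too, was 2.39, 2.66 and 3.38 against 2.20, 2.77 and 3.21 CPM (log2 fold change -0.0077, SE 0.14, unadjusted p = 0.956). Mrps18a was lower in 5 of 6 ac-CYB5R3-KO hearts than in any ac-WT heart, whereas the groups overlapped almost fully for Mrps18b, which had the lowest level per kilobase of the tested members and shares 30.5% of its exonic bases with an antisense gene. Differences between the 3 genes in their change were not tested.

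Mrps36 was 55.7, 63.5 and 136 CPM in ac-WT and 45.1, 46.4 and 55.1 CPM in ac-CYB5R3-KO hearts, with no overlap (log2 fold change -0.64, SE 0.20, unadjusted p = 0.00572; without ac-WT 2 and 3, -0.31, unadjusted p = 0.00426). Despite its name this gene serves the citric acid cycle. Mrps30, of the large subunit, was 18.0, 19.5 and 29.7 against 15.1, 17.9 and 21.2 CPM (log2 fold change -0.21, SE 0.13, unadjusted p = 0.127).

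Mrps2 and Mrps10 had the highest log2 fold changes of the small subunit. Mrps10 was 9.96, 12.7 and 19.7 CPM in ac-WT and 12, 15.0 and 19.3 CPM in ac-CYB5R3-KO hearts (log2 fold change 0.19, SE 0.16, unadjusted p = 0.250). Its log2 fold change was 0.38 without ac-WT 2 and 3 and 0.50 on total counts (unadjusted p = 0.0117 and 0.00571). Mrps2 was 14.3, 15.5 and 16.8 against 13.7, 16.5 and 17.5 CPM (log2 fold change 0.048, SE 0.083, unadjusted p = 0.576). The groups overlapped for both.

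Levels were described further within each library. The mean of log2(CPM + 1) over members was 4.67, 4.81 and 5.40 (lowest, median and highest) in ac-WT and 4.48, 4.68 and 4.74 in ac-CYB5R3-KO hearts, so the groups overlapped and the highest ac-WT value was ac-WT 2. ac-CYB5R3-KO 3, at 4.48, was the lowest heart of its group in 55 of the 76 members and held the highest sum of red blood cell markers, 6259 CPM against 114 to 3456 in the others. The coefficient of variation of a member had a median of 21.5% over the ac-WT and 9.41% over the ac-CYB5R3-KO hearts, and of 8.06% over ac-WT 1, 4, 5 and 6. Members with a higher level per kilobase tended to have a lower log2 fold change (Spearman's rho -0.42 over 76 genes, which share the same 12 libraries).

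Nuclear subunits of oxidative phosphorylation, which the ribosome's products join in the same complexes, had a lower median than the members. Of 76 tested subunits 65 were lower at an unadjusted p under 0.05, with a median log2 fold change of -0.62. The count was 46 without ac-WT 2 and 3 (median -0.28), and on total counts 36 (median -0.26). Counts of the members were 9.14% ± 0.893 of the counts of these subunits in ac-WT and 10.6% ± 0.531 in ac-CYB5R3-KO hearts (SD, n = 6 each), with ranges of 7.82% to 10.1% and 9.95% to 11.4%. The 2 lowest shares were those of ac-WT 2 and 3, and the ranges overlapped slightly. Relative to cytosolic ribosomal protein counts, the members stood at 12.1% ± 2.01 and 11.4% ± 1.26, and there the groups overlapped widely.

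**Figure D4:**
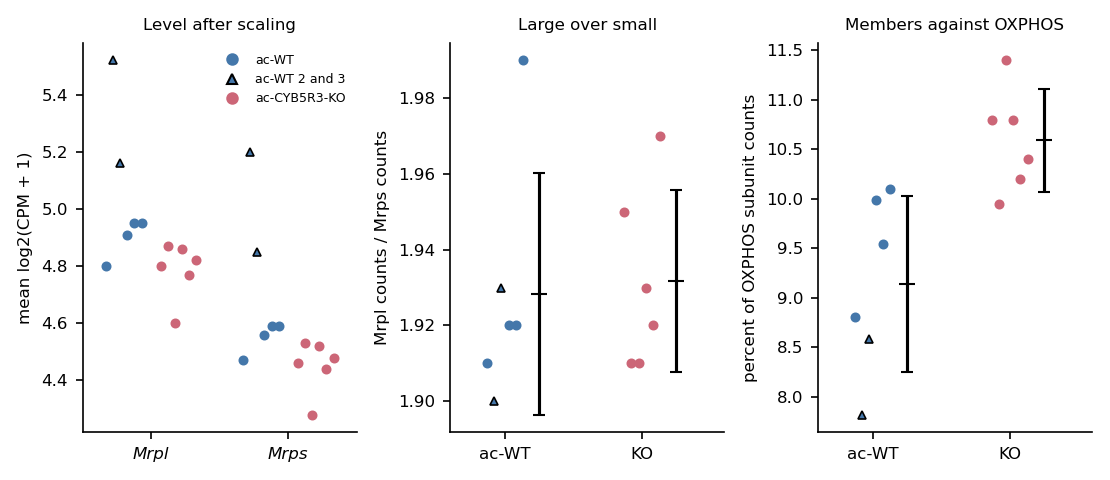
Values of each heart (circles, with ac-WT 2 and 3 as triangles), namely the mean log2(CPM + 1) of Mrpl and Mrps genes, the ratio of Mrpl to Mrps counts, and the members' counts as a percentage of those of nuclear subunits of oxidative phosphorylation, the last 2 with mean and SD in black. The ratio centres on 1.93 in both groups, and the percentage is 7.82 to 10.1 in ac-WT and 9.95 to 11.4 in ac-CYB5R3-KO hearts.

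Cytosolic ribosomal protein genes were lower at an unadjusted p under 0.05 in 44 of 84 cases, with a median log2 fold change of -0.26, and in 19 cases without ac-WT 2 and 3 (median -0.20). On total counts 1 was lower and the median was 0.019. The members' own medians in these 3 settings were -0.29, -0.10 and 0.026. The 2 ribosomal RNAs of mitochondria were lower by more, mt-Rnr1 with a log2 fold change of -1.46 (SE 0.38, unadjusted p = 0.00175) and mt-Rnr2 with -1.48 (SE 0.38, unadjusted p = 0.00159), and by -0.70 each without ac-WT 2 and 3. The ac-WT hearts held 2791 to 16574 CPM of mt-Rnr2 and the ac-CYB5R3-KO hearts 2113 to 2765 CPM, without overlap. How much ribosomal RNA library preparation removed from each sample was not measured. Mitochondrial messenger RNAs had 2 of 13 lower at this threshold, with a median of -0.47, and of 0.00040 without ac-WT 2 and 3.

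Of 5 mitoribosome proteins that carry other names, 3 were lower at an unadjusted p under 0.05 (median log2 fold change -0.33), and 1 without ac-WT 2 and 3 (median -0.14). Gadd45gip1, a large subunit protein near the tunnel exit, was 9.25, 10.6 and 20.5 CPM in ac-WT and 7.11, 7.91 and 9.13 CPM in ac-CYB5R3-KO hearts, with no overlap (log2 fold change -0.59, SE 0.18, unadjusted p = 0.00566). Chchd1, of the small subunit, was 36.1, 48.3 and 55.7 against 34.1, 38.5 and 42.4 CPM (log2 fold change -0.28, SE 0.11, unadjusted p = 0.0229). Both carried the direction of the members named Mrpl and Mrps.

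Of 27 assembly factors, 5 were lower at an unadjusted p under 0.05, with a median log2 fold change of -0.22. With ac-WT 2 and 3 left out, 1 was lower and the median was -0.0070, and on total counts 0 were lower, 2 were higher and the median was 0.13. The lowest p was that of Malsu1, the partner of Mrpl14, which keeps the large subunit from joining too early. Malsu1 was 12.6, 15.9 and 24.6 CPM in ac-WT and 10.1, 11.6 and 13.0 CPM in ac-CYB5R3-KO hearts (log2 fold change -0.53, SE 0.14, unadjusted p = 0.00203; without ac-WT 2 and 3, -0.34, unadjusted p = 0.00467). Mettl17, needed for the small subunit, was 6.22, 8.39 and 12.5 against 5.78, 6.55 and 7.10 CPM (log2 fold change -0.45, SE 0.16, unadjusted p = 0.0160). The groups overlapped for both.

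Of 14 translation factors tested, 3 were lower at an unadjusted p under 0.05 (median log2 fold change -0.15), and 1 without ac-WT 2 and 3 (median -0.049). On total counts 0 were lower, 1 was higher and the median was 0.15. Tufm, the elongation factor that brings aminoacyl-tRNA to the ribosome, was 87.6, 97.6 and 136 CPM in ac-WT and 63.0, 73.4 and 93.0 CPM in ac-CYB5R3-KO hearts (log2 fold change -0.47, SE 0.13, unadjusted p = 0.00326). Oxa1l, the insertase that receives the finished chains, was 34.3, 36.7 and 59.0 against 26.3, 31.6 and 38.6 CPM (log2 fold change -0.37, SE 0.15, unadjusted p = 0.0239). In Tufm 5 of 6 ac-CYB5R3-KO hearts were below all ac-WT hearts, and in Oxa1l 4 of 6.

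Aminoacyl-tRNA synthetases of mitochondria were lower at this threshold in 6 of 17 cases (median -0.14), and without ac-WT 2 and 3 in 3 cases, with 1 higher and a median of 0.050. On total counts 1 was lower, 1 was higher and the median was 0.19. Lars2 had a log2 fold change of -1.10 (SE 0.33, unadjusted p = 0.00488), but its ac-WT mean of 4268 CPM lay far above that of the next synthetase, Iars2, at 34.1 CPM, and whether all its reads come from the synthetase was not tested. Sars2 was 3.87, 4.80 and 8.15 CPM in ac-WT and 3.02, 3.73 and 4.06 CPM in ac-CYB5R3-KO hearts (log2 fold change -0.64, SE 0.19, unadjusted p = 0.00558). Of 7 genes for transcription in mitochondria, 0 were lower at an unadjusted p under 0.05 with edgeR. The 2 with the lowest p were Polrmt, the RNA polymerase (log2 fold change -0.33, SE 0.20, unadjusted p = 0.114), and Mterf2 (-0.18, SE 0.13, unadjusted p = 0.203).

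Of 10 regulators of nuclear genes for mitochondria, 3 were lower at an unadjusted p under 0.05, namely the coactivators Ppargc1a, Ppargc1b and Perm1. Ppargc1a was 18.7, 27.1 and 80.2 CPM in ac-WT and 12.4, 15.5 and 25.3 CPM in ac-CYB5R3-KO hearts (log2 fold change -1.10, SE 0.33, unadjusted p = 0.00475), and -0.48 without ac-WT 2 and 3 (unadjusted p = 0.0441). Ppargc1b was 2.27, 4.05 and 9.88 against 2.05, 2.42 and 2.83 CPM (log2 fold change -1.02, SE 0.31, unadjusted p = 0.00502). Of the factors whose sites were counted in the promoters, Gabpa had a log2 fold change of 0.036, Yy1 of 0.057 and Nrf1 of -0.075, with unadjusted p-values of 0.768, 0.502 and 0.473. Esrra, an estrogen-related receptor, had lowest, median and highest levels of 44.9, 50.1 and 85.3 CPM in ac-WT and 38.6, 46.0 and 50.7 CPM in ac-CYB5R3-KO hearts (log2 fold change -0.35, SE 0.17, unadjusted p = 0.0526), and -0.047 without ac-WT 2 and 3.

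**Figure D5:**
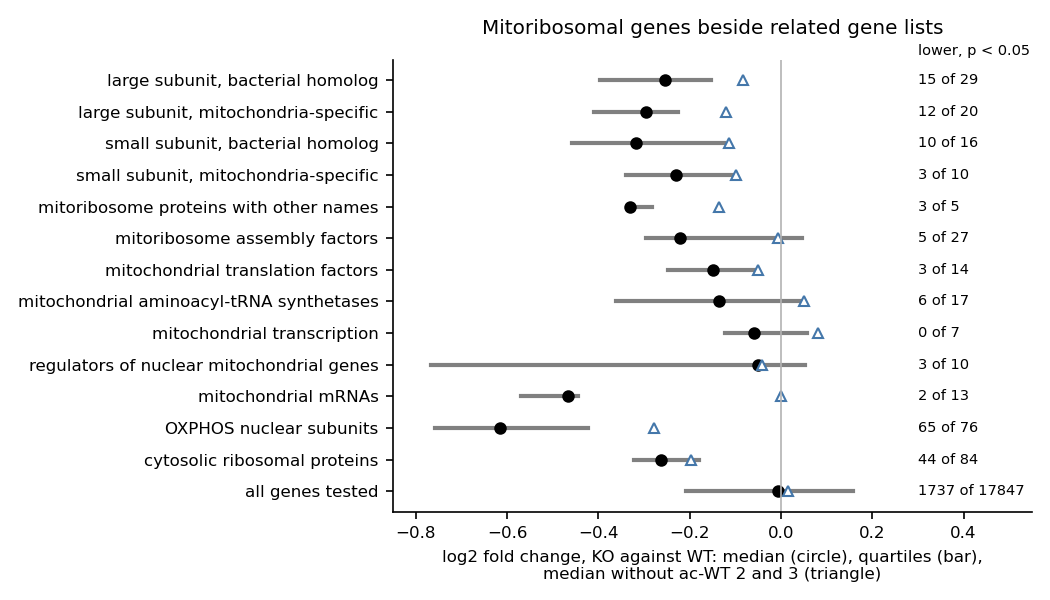
Median log2 fold change (circles) with quartiles (bars) of the members by class and of related gene lists, with triangles for the median without ac-WT 2 and 3, and at the right the number of tested genes lower at an unadjusted p under 0.05. Among the lists plotted, which leave out mitochondrial ribosomal RNA and cell type markers, oxidative phosphorylation subunits lie lowest at -0.62, the 4 classes of members at -0.23 to -0.32 and all genes at -0.0074.

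Markers of other cell types were examined beside the members. Of 12 cardiomyocyte markers 4 were lower at an unadjusted p under 0.05 (median log2 fold change -0.34), and of 8 fibroblast markers 0 were lower or higher with edgeR. Endothelial markers had 0 of 6 called and macrophage markers 1 of 6 lower, and 3 of 5 smooth muscle markers were lower and 1 higher. All 4 red blood cell markers tested had a positive log2 fold change (median 1.62, 2 of 4 at an unadjusted p under 0.05), 1 of 4 lymphocyte markers was higher, and 1 of 3 atrial markers was lower. Adipocyte markers had a single tested gene, which was not called. When ac-WT 2 and 3 were left out, 2 cardiomyocyte markers were lower (median -0.061), the fibroblast median turned from 0.16 to -0.18 with 2 lower, 3 macrophage markers were lower and 4 red blood cell markers higher (median 2.37). No marker was at 0 in all hearts, and the part of cell makeup in the members' values was not tested.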

How the data were processed

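Counts were deposited by the authors as whole numbers of reads per Ensembl gene and heart, not normalized. Per the labels, total RNA was read after a stranded kit, as 75 bp reads, and the submitters' processing notes name STAR, featureCounts and GRCm39, while the paper's methods name mm9 and FPKM. Neither gives the strand setting, so reads of overlapping, antisense or duplicated genes may be divided wrongly. Exon lengths and overlaps came from GENCODE for NCBIM37, and promoters from RefSeq on GRCm38.p6.

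Genes passing filterByExpr (minimum count 10), 17847 in all, were compared by edgeR's quasi-likelihood test (4.0.16, R 4.3.3), two-sided, with TMM factors, no covariate and Benjamini-Hochberg adjustment over all of them. CPM used TMM-scaled library sizes. Alternatives were DESeq2 (1.42.0), limma-voom (3.58.1), RLE factors, total counts, other filters, the replicate number as a block and leaving out hearts. The spread between hearts, a biological coefficient of variation of 26.5%, limits precision more than counting error.

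Members and lists were chosen with earlier results of these data known. Members named were, in each subunit, the 6 with the lowest p, the 2 lowest and highest by change and by level per kilobase, and fixed names, plus the 2 with the lowest p in each list. Mrpl30, Mrpl45, Mrpl46, Mrps11, Iars2, Perm1, Esrra, Gabpa, Yy1 and Nrf1 were added once their values were known, and so were the promoter motifs. No column was left unused.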

Additional observations from a re-analysis of the deposited data

Results flagged for a closer look

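Hearts that stood apart from the other 5 of their group by Dixon's criterion were flagged. ac-WT 2 was flagged in 5 of the named genes, with Mrpl23 at 89.6 CPM (37.6 to 57.1 in the other ac-WT hearts), Mrps21 at 164 CPM (65.7 to 98.2), Mrps28 at 49.5 CPM (20.1 to 29.9), Mrps30 at 29.7 CPM (18.0 to 20.5) and Mrps36 at 136 CPM (55.7 to 74.7). Over all 76 members, 22 of 152 groups were flagged, 21 of them for ac-WT 2. The criterion flags about 1 in 20 single groups by chance, but that rate cannot be applied to this count. Members share the same 12 libraries and vary together (median pairwise r 0.77), so the flags are not separate events. The mean log2(CPM + 1) over the members was flagged in ac-CYB5R3-KO 3, at 4.48 against 4.65 to 4.74 in the other hearts of its group.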

How the results depend on the processing

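The medians of Mrpl and Mrps genes kept their sign under DESeq2, limma-voom, RLE factors and both filters, and most counts depended on the scaling and on single hearts. With total counts, 3 members were lower at an unadjusted p under 0.05 (3 Mrpl, 0 Mrps), 0 at p under 0.01 and 1 higher, with medians of 0.026 for Mrpl and 0.026 for Mrps genes. Of the 17847 genes tested, 367 were lower and 1686 higher at p under 0.05 on that scale. With total counts of genes that are not mitochondrially encoded, 11 were lower (5 Mrpl, 6 Mrps, against 3.03% of all genes), 2 at p under 0.01 and 2 higher, with medians of -0.023 and -0.028. Without both ac-WT 2 and 3, 16 were lower (9 Mrpl, 7 Mrps), 5 at p under 0.01 and 1 higher. limma-voom called 9 at p under 0.01, and DESeq2 called 1 member at an adjusted p under 0.05, beside 437 of all genes. Shares of all genes at p under 0.01 are not given for the alternatives, so those counts have no background. Leaving out each heart in turn gave 23 (without ac-WT 3) to 50 (without ac-WT 1) members lower at p under 0.05, 25 without ac-WT 2 and 26 without ac-CYB5R3-KO 3, where 6.90%, 10.9%, 6.17% and 8.16% of all genes were lower. It gave 1 to 26 at p under 0.01, 0 to 1 higher, 15 to 31 Mrpl and 8 to 19 Mrps genes, and medians of -0.32 to -0.15 and -0.34 to -0.18. The cause of these differences was not tested.

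Over all genes, 18 passed an adjusted p under 0.05 with edgeR, 437 with DESeq2, 2 with limma-voom, 8 with RLE factors, 35 with no filter, 8 with total counts, 11 with total counts of genes that are not mitochondrially encoded, 7 without both ac-WT 2 and 3 and 2 to 38 with single hearts left out. Cyb5r3 had a log2 fold change of -1.17 with limma-voom (adjusted p = 0.0561), -1.03 with total counts (0.315) and -1.06 with those of genes that are not mitochondrially encoded (0.221), and -1.31 to -1.08 with single hearts left out (0.0305 to 0.136, at 0.05 or more in 7 of 12 fits).

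Nothing in the labels says that a replicate number marks a shared litter or day, so the hearts were not treated as paired. Same-numbered hearts still deviated together more than other pairs on average, though not every such pair did, and what they share was not tested. The deviations from the group means correlated above 0.1 in 4 of 6 same-numbered pairs (mean 0.144, from -0.081 to 0.353, against a mean of -0.028 over the other pairs), and 6 of the 12 hearts correlated best with the heart of their own number. With the replicate block, 33 members were lower at an unadjusted p under 0.05 (8.68% of all genes) and 5 at p under 0.01, 2 genes in all passed an adjusted p under 0.05, and Cyb5r3 was at -1.18 (adjusted p = 0.1).

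Of 546 values of the named members under the alternatives, 18 changed sign, all of members that did not pass an unadjusted p under 0.05. With total counts, and with those of genes that are not mitochondrially encoded, Mrpl19 was at 0.12 and 0.071, Mrpl32 at 0.19 and 0.14, Mrps18b at 0.26 and 0.21 and Mrps30 at 0.098 and 0.043. Mrps18b was also at 0.016 with no filter and 0.066 without both ac-WT 2 and 3, and -0.053 to 0.064 with hearts left out in turn. Mrpl24 was then at -0.035 to 0.048 and Mrpl50 at -0.023 to 0.12.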
